A study of Homo sapiens with 5 samples.

Results

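High mobility group (HMG) proteins are small, abundant chromatin proteins without histone fold or enzymatic activity. The genes described here are the 9 rows of the deposited count table that carry the symbols HMGA1, HMGA2, HMGB1, HMGB3, HMGN1, HMGN2, HMGN3, HMGN4 and HMGN5, out of 24497 gene rows in all. They were picked by name as 1 protein class, with earlier results of these data known, and all 9 passed the filter on low counts. HMGB2 is not among them, so shares and ranks given by family cover the listed genes only. The samples were 5 RNA sequencing libraries of HEK293, an established line derived from human embryonic kidney, grown in DMEM with glutamine and fetal calf serum. The labels give no treatment, genotype or time that differs between them. Batch is the only grouping, which a prefix of the sample titles follows, with 2 libraries in batch A and 3 in batch B. Each library carried the material of 100 cells out of a lysate of 1000 cells, was primed with oligo-dT and kept the 5' end fragment of each cDNA.

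The 3 families reach chromatin in different ways. HMGA proteins bind the minor groove of AT-rich DNA through short AT-hook motifs, HMGB proteins bend DNA with their HMG boxes, and HMGN proteins bind the nucleosome itself and compete with linker histone H1. Proliferating and embryonic cells typically express all 3 families strongly, while HMGA2 is largely silent in adult tissue.

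The libraries are called A2, A3, B1, B2 and B3, by batch and the digit that ends their column, which is not used as a replicate number. Gene counts per library ran from 373687 in B1 to 803168 in A3, so that 3 counts, the limit that a count of 0 allows, correspond to 8.03 and 3.74 CPM (counts scaled to a total of 1e+06). The protocol adds the same ERCC spike-in RNA to every lysate, yet the spike-in rows held 1785 and 2127 counts in A2 and A3 and 13, 1 and 19 counts in B1, B2 and B3. The batches thus stand apart in spike-in counts, whose part in the results was not tested. The labels do not say whether libraries came from separate cultures, so every p-value reflects the spread between libraries alone, and that spread may be technical. In bulk libraries, fewer cells of a type and less RNA per cell cannot be told apart. Of 5 markers fixed for HEK293, VIM stood at 428 ± 16.0 CPM in batch A against 517 ± 27.7 CPM in batch B (SD, n = 2 and 3). NEFM went the other way, with every batch B library lower, at 57.0 ± 12.7 CPM in batch A against 37.8 ± 5.93 CPM in batch B. Neither passed the test (edgeR adjusted p = 0.114 for VIM and 0.198 for NEFM). NEFL and LHX1 also had counts in every library, and PAX2 was at or under the limit of 3 counts in 4 of 5 libraries, with 4 counts in the other. Markers of other cell types, 6 of 10 of which have a row, summed to 5.82 to 11.2 CPM in batch A against 10.4 to 21.9 CPM in batch B, with CD3E and ALB at 0. COL1A1 held 34 of their 39 counts, with 3 and 9 in A2 and A3 and 5, 4 and 13 in B1, B2 and B3.

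Together the 9 genes took 0.269% ± 0.00817 of gene counts in batch A against 0.246% ± 0.0150 in batch B (SD, n = 2 and 3). By library the share was 0.275% (95% exact Clopper-Pearson interval 0.263 to 0.288) and 0.263% (0.252 to 0.275) in A2 and A3. In B1, B2 and B3 it was 0.230% (0.215 to 0.245), 0.251% (0.239 to 0.265) and 0.258% (0.246 to 0.271), and these intervals cover counting error only. Every batch B library lay below both batch A libraries, with B1, the shallowest, lowest. The 5 HMGN genes held 0.137% ± 0.00321 of counts in batch A against 0.120% ± 0.00904 in batch B, the 2 HMGB genes 0.0799% ± 0.00142 and 0.0705% ± 0.00624, and the 2 HMGA genes 0.0527% ± 0.00354 and 0.0555% ± 0.00200.

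**Figure D1:**
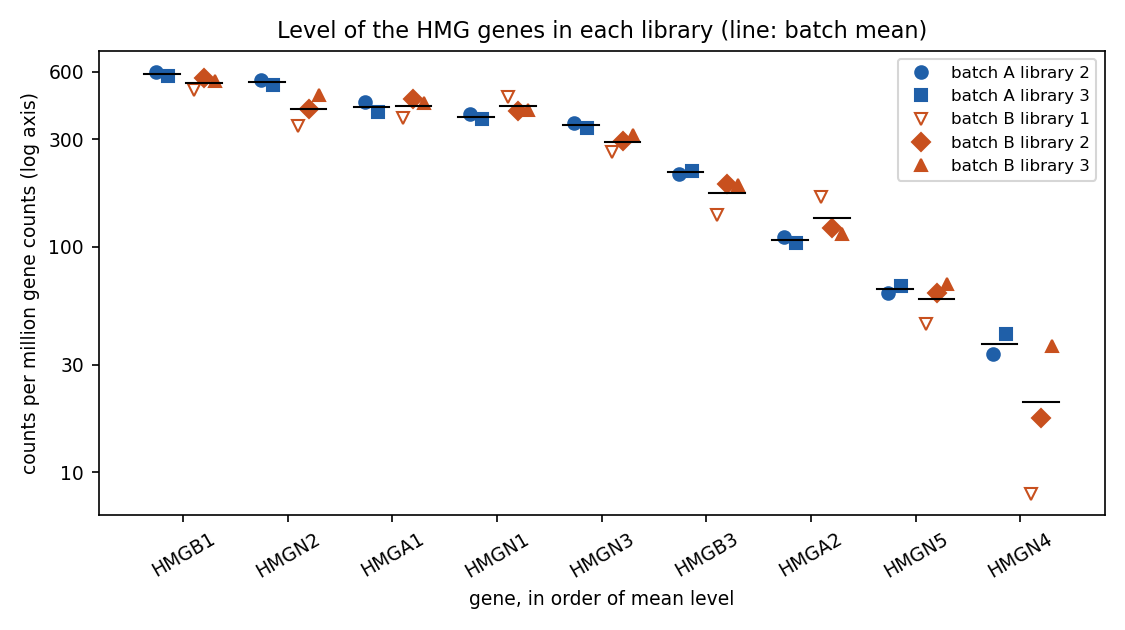
CPM (log axis) of each HMG gene in the 2 batch A (blue) and 3 batch B (orange) libraries, with a line at each batch mean and genes in order of their mean. HMGB1 stands highest at 495 to 598 CPM and HMGN4 lowest at 8.03 to 41.1 CPM, and the open triangles of B1 are at an end of the range for each gene.

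B1 held the lowest CPM of the 5 libraries for 7 of the 9 HMG genes and the highest for HMGN1 and HMGA2, so it was at an end of the range for all 9. The same held for 50.5% of all genes tested and for 58.8% of the 1280 with a mean count of at least 100, and it was the lowest for 30.3% of all genes tested. This was noticed in the data and carries no test. It is also the shallowest library. From B1 to B3, gene counts rose 1.83-fold in total, while counts of HMGA2 rose 1.26-fold, of HMGN1 1.61-fold, of HMGN2 2.54-fold and of HMGN4 8.33-fold, the last from 3 counts.

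On the CPM scale HMGB1 was highest and HMGN4 lowest, and the steps between neighbours ran from 1.04-fold, between HMGA1 and HMGN1, to 2.25-fold, between HMGN5 and HMGN4. HMGB1 averaged 553 ± 38.4 CPM over the 5 libraries, HMGN2 460 ± 85.3, HMGA1 420 ± 34.6 and HMGN1 406 ± 34.8 (SD, n = 5). Neighbours among these 4 overlapped in range, although HMGB1 exceeded HMGN2 in 5 of 5 libraries. HMGN3 followed at 314 ± 35.6 CPM, its range apart from those of HMGN1 and HMGB3 but overlapping that of HMGN2. HMGB3 at 190 ± 30.9 CPM and HMGA2 at 123 ± 24.6 CPM overlapped with each other, and HMGN5 at 61.3 ± 9.24 CPM and HMGN4 at 27.3 ± 14.0 CPM lay apart from each other and from HMGA2. Among the 9215 tested genes, 97.2% had a lower mean CPM than HMGB1, 81.6% a lower one than HMGA2 and 29.3% a lower one than HMGN4. Because the protocol keeps 5' end fragments, CPM was not divided by length for these values. Divided by the length of a GENCODE reference transcript, HMGN1 came first at 573 CPM per kilobase, before HMGN2 at 386, HMGN3 at 311, HMGA1 at 195 and HMGB1 at 101 CPM per kilobase, while HMGN5 and HMGN4 stayed last. The transcript taken for HMGB1 is 5485 bases long, the longest of the 9.

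With p-values from edgeR's quasi-likelihood fit, adjusted over all genes by Benjamini-Hochberg, 1 of the 9 genes differed between batches, against 4.2% of the 9215 genes tested. That gene was HMGN2, and it was lower in batch B, as were 2.05% of all genes tested. The fitted log2 fold change was negative for 6 members and positive for 3, with a median of -0.10 beside 0.00396 over all genes tested. The batches did not overlap in CPM for 6 of the 9, against 31.3% of all genes tested. HMGB1, HMGN2, HMGN3 and HMGB3 were lower in every batch B library (17.8% of all genes tested), and HMGN1 and HMGA2 were higher in every batch B library (13.5% of all genes tested). At an unadjusted p under 0.05 there were 3 members, HMGN2, HMGN4 and HMGB3, against 16.4% of all genes tested.

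**Figure D2:**
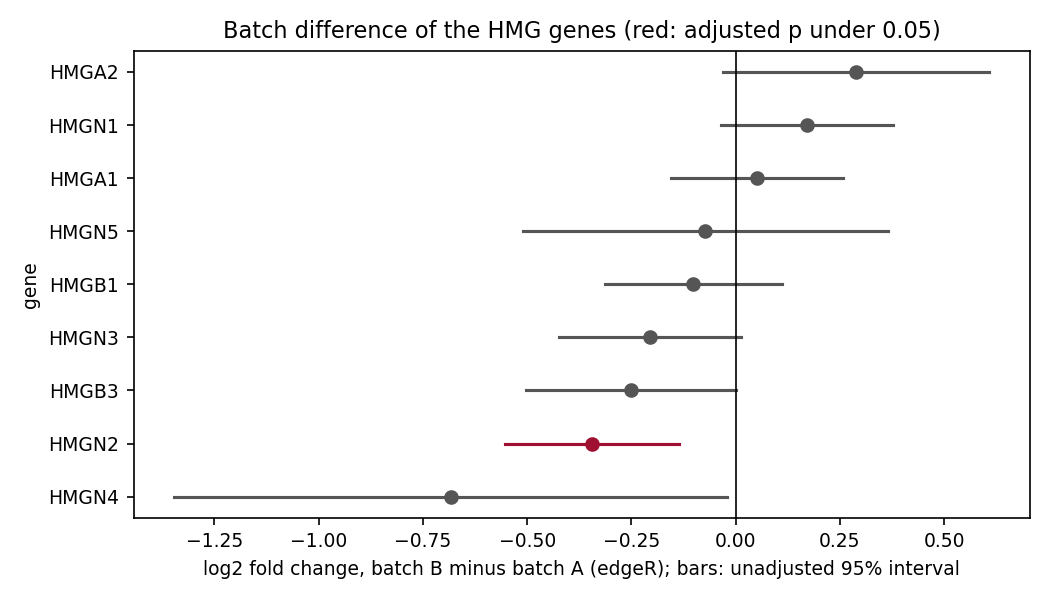
Log2 fold change of each HMG gene, batch B minus batch A, from edgeR over 5 libraries, with unadjusted 95% intervals. HMGN2 at -0.34 is the only one with an adjusted p under 0.05, and HMGN4 at -0.68 has the widest interval.

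HMGN2 encodes a ubiquitous nucleosome-binding protein of the HMGN family. It had 378 and 422 counts in A2 and A3 and 128, 235 and 325 counts in B1, B2 and B3. As CPM these were 550 and 525 in A2 and A3 against 343, 408 and 474 in B1, B2 and B3. All batch B libraries were lower than both of batch A, and the 3 of batch B were spread widely. Its log2 fold change was -0.34 (SE 0.11, edgeR adjusted p = 0.0360), a 1.27-fold lower level in batch B. The chi-square statistic of its counts within batches was 3.58 per degree of freedom, against a median of 1.06 over the 1280 tested genes with a mean count of at least 100, while the edgeR fit assigned it the pooled spread of genes of like abundance. The call was lost without A2, A3, B1 or B2 (edgeR adjusted p = 0.366, 0.122, 0.170 and 0.180), and with the DESeq2 Wald test (adjusted p = 0.520, and 0.0999 with a local dispersion trend).

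**Figure D3:**
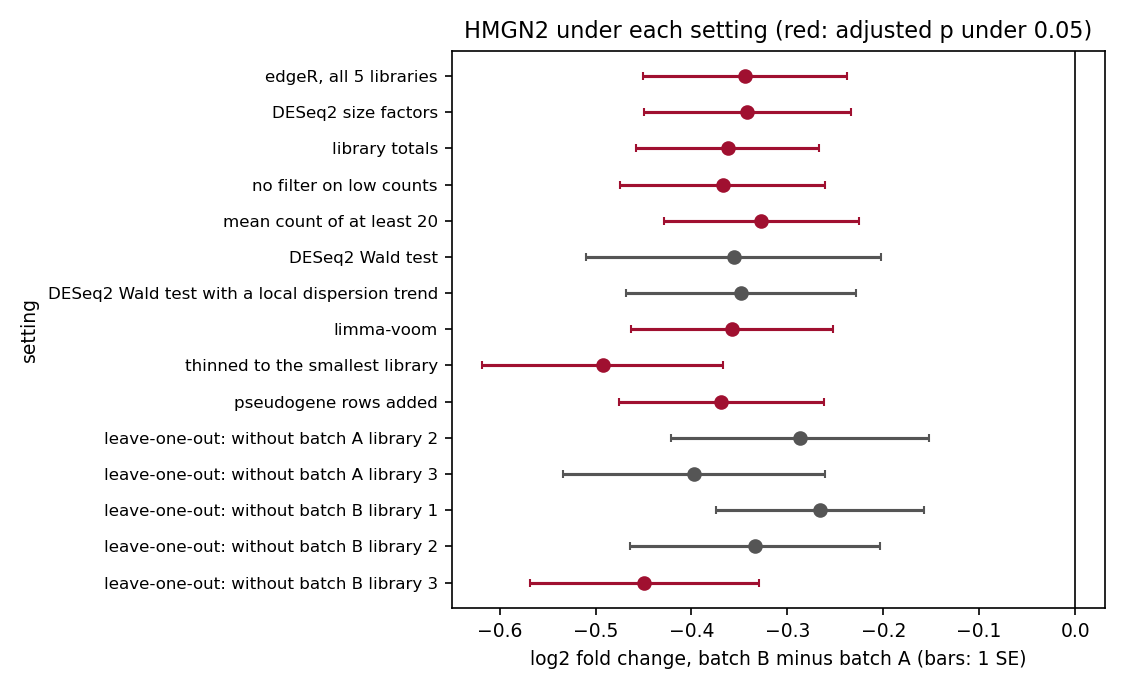
Log2 fold change of HMGN2, batch B minus batch A, with 1 SE, under each setting tried (rows). The value stays between -0.49 and -0.27, and it has an adjusted p under 0.05 in 9 of the 15 fits shown, including edgeR on all 5 libraries.

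HMGN1, the other widely expressed nucleosome binder of this family, stood the opposite way. It had 387 and 371 CPM in A2 and A3 and 463, 401 and 407 CPM in B1, B2 and B3. The batches did not overlap, but the log2 fold change of 0.17 (SE 0.11) did not pass the test (edgeR adjusted p = 0.436). The ratio of HMGN1 to HMGN2 counts, which does not depend on how libraries are scaled, was 0.704 and 0.706 in A2 and A3 and 1.35, 0.983 and 0.858 in B1, B2 and B3. This ratio was picked after its values were seen and carries no test.

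**Figure D4:**
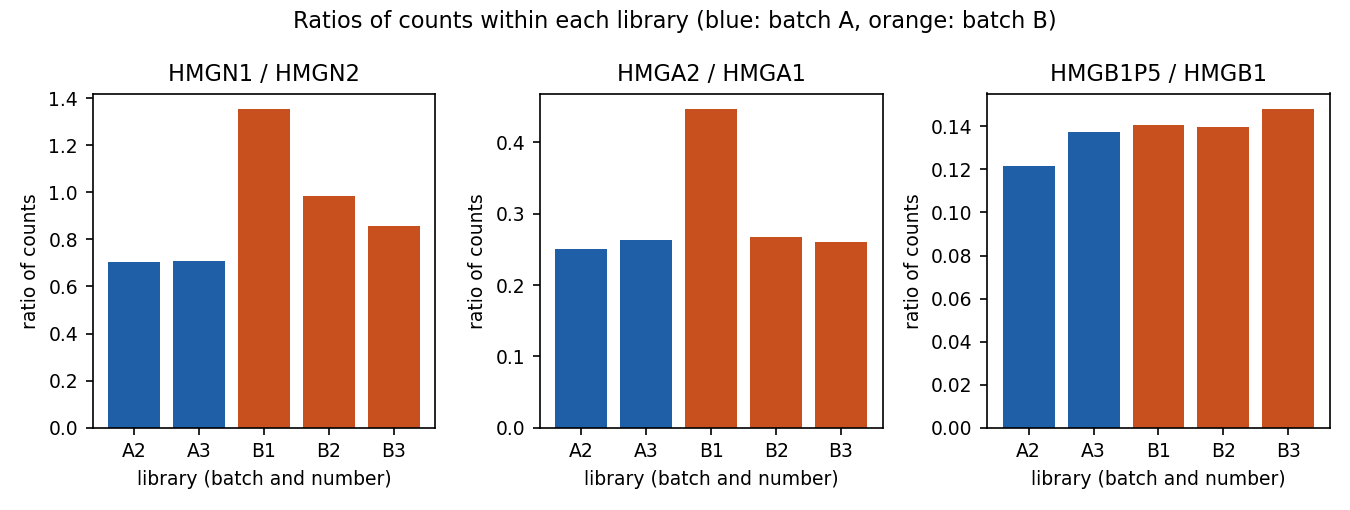
Ratio of counts of 2 genes within each library (bars, from 0), for HMGN1 over HMGN2, HMGA2 over HMGA1 and HMGB1P5 over HMGB1. The first is 0.704 and 0.706 in batch A against 0.858 to 1.35 in batch B, the second stands out only in B1 at 0.446, and the third stays between 0.122 and 0.148.

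HMGN3, a member with a role in endocrine cells and in thyroid hormone receptor binding, had 355 and 339 CPM in A2 and A3. In B1, B2 and B3 it had 265, 295 and 315 CPM, all lower than in batch A. Its log2 fold change was -0.21 (SE 0.11, edgeR adjusted p = 0.343). A row for its antisense transcript, HMGN3-AS1, held 0 counts in both batch A libraries and 1, 2 and 2 in batch B. Whether counting used strand is not given in the sources used here, so reads of the pair cannot be told apart if it did not. HMGN5, which carries a long acidic tail, had 62.6 and 67.2 CPM in batch A against 45.5, 62.6 and 68.6 CPM in B1, B2 and B3. Its batches overlapped, and its log2 fold change was -0.07 (SE 0.22, edgeR adjusted p = 0.924), and 0.03 without B1.

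HMGN4 is a retrogene, an expressed copy of HMGN2 that arose through its mRNA. It had 23 and 33 counts in A2 and A3 and 3, 10 and 25 counts in B1, B2 and B3. As CPM these were 33.5 and 41.1 in batch A against 8.03 (95% exact interval 1.66 to 23.5), 17.4 (8.33 to 32.0) and 36.5 (23.6 to 53.9) in batch B. B3 lay between the 2 batch A libraries, while B1 and B2 lay below both. The within-batch chi-square statistic was 3.44 per degree of freedom. The log2 fold change of -0.68 (SE 0.34) did not pass the test (edgeR adjusted p = 0.285), and without B3 it was -1.40 with edgeR adjusted p = 0.0489. Without B1 it was -0.43 (edgeR adjusted p = 0.605).

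The coding sequences of HMGN2 and its copies show how alike these rows are within the coding part. They are printed from GENCODE release 29 transcripts, 5' to 3', in lower case, with capitals in the copies wherever a base differs from HMGN2. The bases before the coding start, 94 in the HMGN2 transcript and 177 in that of HMGN4, were not compared. How reads were assigned to these rows was not tested.
HMGN2: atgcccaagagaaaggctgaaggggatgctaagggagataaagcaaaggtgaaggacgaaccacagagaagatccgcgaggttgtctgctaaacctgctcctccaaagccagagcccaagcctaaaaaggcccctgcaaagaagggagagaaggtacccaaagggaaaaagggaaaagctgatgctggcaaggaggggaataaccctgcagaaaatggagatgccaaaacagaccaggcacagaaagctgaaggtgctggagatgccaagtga
HMGN4: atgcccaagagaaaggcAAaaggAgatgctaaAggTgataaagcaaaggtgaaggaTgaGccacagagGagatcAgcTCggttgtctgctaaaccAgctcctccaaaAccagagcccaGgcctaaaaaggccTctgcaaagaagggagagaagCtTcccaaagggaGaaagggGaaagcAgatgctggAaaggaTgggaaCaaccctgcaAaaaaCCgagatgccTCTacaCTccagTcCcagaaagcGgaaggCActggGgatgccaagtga
HMGN2P15: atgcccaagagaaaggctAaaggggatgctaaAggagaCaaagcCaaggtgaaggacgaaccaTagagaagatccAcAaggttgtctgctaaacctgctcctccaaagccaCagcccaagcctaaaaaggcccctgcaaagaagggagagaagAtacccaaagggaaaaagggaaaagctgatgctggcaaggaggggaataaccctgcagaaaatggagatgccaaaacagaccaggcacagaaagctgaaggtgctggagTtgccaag
HMGN4 differed from HMGN2 at 37 of 273 bases, with no shared run longer than 20 bases. The processed pseudogene HMGN2P15 differed at 10 of 270 bases and shared a run of 108 bases. HMGN2P15 had 2 and 7 counts in batch A against 2, 4 and 2 counts in batch B, or 1.14% of the HMGN2 count over all libraries. All 17 rows named as HMGN2 pseudogenes together held 54 counts, or 3.63% of the HMGN2 count. The within-library ratio of HMGN4 to HMGN2 was 0.0608 and 0.0782 in batch A against 0.0234, 0.0426 and 0.0769 in B1, B2 and B3, so it was not constant.

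HMGB1 is a DNA-bending protein that also acts as an inflammatory signal when released from cells. It had 411 and 459 counts in A2 and A3 and 185, 322 and 372 counts in B1, B2 and B3. In CPM, A2 and A3 stood at 598 and 571, and B1, B2 and B3 at 495, 560 and 543. The batches did not overlap, but the gap was small, and the log2 fold change of -0.10 (SE 0.11, 95% interval -0.31 to 0.11) did not pass the test (edgeR adjusted p = 0.713). After thinning to the smallest library, in a single draw, the log2 fold change was 0.10. HMGB3, an X-linked relative with a role in blood stem cells, had 211 and 218 CPM in batch A against 139, 191 and 188 CPM in B1, B2 and B3. It was lower in every batch B library, with a log2 fold change of -0.25 (SE 0.13, edgeR adjusted p = 0.304).

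HMGB1 had the largest pseudogene signal of the set. Over all members, 40 of 50 rows named as their pseudogenes had a count, and their 365 counts came to 4.52% of the 8079 counts of the genes. Of these, 254 were on rows of HMGB1 pseudogenes and 239 on that of HMGB1P5 alone, a processed pseudogene. Whether HMGB1P5 is itself transcribed in these cells was not tested. HMGB1P5 had 50 and 63 counts in A2 and A3 against 26, 45 and 55 in B1, B2 and B3, and it was 12.2%, 13.7%, 14.1%, 14.0% and 14.8% of HMGB1 in A2, A3, B1, B2 and B3. Its share of HMGB1 stayed within that narrow range in libraries of different depth, and its own log2 fold change was 0.04 (SE 0.20, edgeR adjusted p = 0.953). HMGB1P5 was identical to the HMGB1 coding sequence at 639 of 648 aligned positions, 6 of the 9 others being gaps, and shared a run of 194 bases. The opening 150 coding bases of HMGB1 are printed because HMGB1P5 has the same letters throughout them. A read that lies wholly within them cannot be assigned to either row by its sequence. The 184 bases before the coding start in the HMGB1 transcript were not compared, so this does not cover reads that reach into them.
HMGB1: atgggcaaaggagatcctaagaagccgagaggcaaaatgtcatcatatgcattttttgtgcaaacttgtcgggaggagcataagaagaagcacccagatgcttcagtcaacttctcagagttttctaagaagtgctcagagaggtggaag
Adding pseudogene rows raised the mean level of HMGB1 from 553 to 634 CPM. HMGN1P38, identical to HMGN1 at 285 of 290 aligned bases, had 37 counts, or 2.97% of HMGN1. The counts of HMGB1 and HMGB1P5 are uncertain to the extent that the counting split shared reads between them.

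The HMGA genes did not pass the test. HMGA1, an architectural factor that is abundant in proliferating cells, had 441 and 397 CPM in A2 and A3 and 372, 455 and 436 CPM in B1, B2 and B3. The batches overlapped, and the log2 fold change was 0.05 (SE 0.11, 95% interval -0.16 to 0.26, edgeR adjusted p = 0.878). It was below 0 without A3 (-0.04) and without B2 (-0.0048). HMGA2, the embryonic member that the let-7 microRNAs repress, had 76 and 84 counts in batch A against 62, 70 and 78 counts in batch B. As CPM these were 111 and 105 in batch A against 166 (95% exact interval 127 to 213), 122 and 114 in batch B. The batches did not overlap in CPM, with B1 far above the others, and the log2 fold change of 0.29 (SE 0.16) did not pass the test (edgeR adjusted p = 0.371). Without B1 it was 0.14. The ratio of HMGA2 to HMGA1 counts was 0.251 and 0.263 in batch A against 0.446, 0.267 and 0.261 in B1, B2 and B3, so B1 alone stood out.

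Sequence upstream of the gene starts is described for the members, whether or not they separated by batch. Of the 9, 6 separated, in both directions, against 31.3% of all genes tested, and HMGA2, which has no window, is among the 6. Whether upstream sequence has a part in that separation was not tested. RefSeq promoter windows on GRCh38.p14 were found for 8 of the 9 genes, all but HMGA2, in 12 windows, and the 250 bases before each start were searched. The letters CCAAT on either strand, the core of the element bound by NF-Y, occurred in at least 1 window of 6 of the 8 genes. They occurred in 7 of the 12 windows. The shares were 37% of all 27305 genes with a window and 32% of all 35116 windows of that length. These backgrounds, and those given below for other letters, were not limited to the genes tested here, whose own share was not taken. HMGB1 and HMGB3 each had a window with 3 copies, and HMGN1 and HMGN3 had 2 each. TATAAA on either strand occurred in 0 of the 12 windows and in 10.7% of all windows, and GGGCGG on either strand in 8 of the 12 and in 42.6%. HMGN4 and HMGN5 had no CCAAT. A match is a description of letters and not a site.

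The windows of HMGN2 and HMGN1, which stood opposite ways between batches, and of the retrogene HMGN4 and of HMGB1 are printed 5' to 3' on the strand of the gene, with CCAAT or its reverse complement ATTGG in capitals. They are HMGN2 at chr1:26472190-26472439 (plus strand), HMGN1 at chr21:39349089-39349338 (minus strand), HMGN4 at chr6:26538116-26538365 (plus strand) and HMGB1 at chr13:30465937-30466186 (minus strand).
HMGN2: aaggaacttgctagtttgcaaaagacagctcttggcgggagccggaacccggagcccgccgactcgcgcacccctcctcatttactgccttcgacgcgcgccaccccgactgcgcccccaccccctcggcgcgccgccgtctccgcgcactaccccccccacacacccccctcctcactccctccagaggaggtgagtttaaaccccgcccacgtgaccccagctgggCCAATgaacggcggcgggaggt
HMGN1: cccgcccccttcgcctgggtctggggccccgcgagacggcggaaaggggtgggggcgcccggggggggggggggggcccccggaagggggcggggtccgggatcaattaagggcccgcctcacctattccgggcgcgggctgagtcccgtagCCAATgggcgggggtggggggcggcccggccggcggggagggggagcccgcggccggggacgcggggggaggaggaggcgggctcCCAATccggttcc
HMGN4: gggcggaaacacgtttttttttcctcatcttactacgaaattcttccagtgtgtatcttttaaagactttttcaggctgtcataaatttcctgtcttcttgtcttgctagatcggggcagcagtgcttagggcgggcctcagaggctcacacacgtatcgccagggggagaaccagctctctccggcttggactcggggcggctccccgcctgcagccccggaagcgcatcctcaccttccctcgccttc
HMGB1: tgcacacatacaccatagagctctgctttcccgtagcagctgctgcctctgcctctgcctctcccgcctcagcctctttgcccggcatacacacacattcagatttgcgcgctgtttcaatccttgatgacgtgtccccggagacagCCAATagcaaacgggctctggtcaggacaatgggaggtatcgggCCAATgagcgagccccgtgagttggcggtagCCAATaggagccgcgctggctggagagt
The copy of CCAAT nearest the start began 22 bases before it in HMGN2, 13 in HMGN1 and 28 in the printed window of HMGB1. HMGB1 has 3 windows, and the one with the most copies of CCAAT is printed. Of the other two, one has 1 copy, 115 bases before the start, and a GC content of 86.0%, and the other has 0 copies and a GC content of 69.6%. HMGN4 is close to HMGN2 in coding sequence, and its window holds 0 copies beside the 1 of HMGN2. In the printed windows GC content was 68.4% for HMGN2, 80.4% for HMGN1, 54.8% for HMGN4 and 58.4% for HMGB1.

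Genes of related function were examined as 4 lists. The list of linker histones, which compete with HMGN proteins for nucleosomes, held 7 genes, of which 5 had a row and 3 were tested. Of the 3 tested, 1 rose in batch B and the other 2 missed the threshold, against 2.15% of all genes tested that rose. HIST1H1D and HIST1H1E, with 4 and 8 counts in all, were not tested. HIST1H1E went the other way, with 3 and 5 counts in A2 and A3 and 0 in each batch B library. H1FX, a replication-independent H1 variant, had 98 and 136 counts in batch A against 98, 139 and 174 counts in batch B, or 156 ± 18.8 CPM and 253 ± 10.4 CPM (SD, n = 2 and 3). Every batch B library was higher, with a log2 fold change of 0.70 (SE 0.13, edgeR adjusted p = 1.37e-05), and it passed in each of the 14 other fits, with a highest adjusted p of 0.0434.

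Of 17 tested HMG-box genes outside the HMGB family, 0 rose and 0 fell by edgeR, and the median log2 fold change was 0.19. At an unadjusted p under 0.05 the list had 4 of 17 genes, against 16.4% of all genes tested. The DESeq2 Wald test called 0 of the list and 41 of the 5820 genes it gave an adjusted p. SOX4, a developmental transcription factor, had the highest level at 654 ± 143 CPM in batch A against 769 ± 71.1 CPM in batch B, and SSRP1, the HMG-box subunit of the histone chaperone FACT, had 294 ± 19.8 and 317 ± 24.6 CPM (SD, n = 2 and 3). Of 11 tested genes of the SET complex and the acidic histone chaperones, 1 rose, 0 fell and 10 did not pass, against 2.15% of all genes tested that rose and 2.05% that fell. The list's median log2 fold change was 0.14. The member that rose was NME1, a nucleoside diphosphate kinase, from 289 ± 1.30 to 400 ± 62.6 CPM with a log2 fold change of 0.46 (SE 0.11, edgeR adjusted p = 0.00242). Its call was lost without B1 (edgeR adjusted p = 0.0671), and without A3, where batch A held 1 library and the log2 fold change was 0.45. It was also lost with the DESeq2 Wald test (adjusted p = 0.285), but not with the local dispersion trend chosen after seeing the data (DESeq2 adjusted p = 0.0326).

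Of 5 tested genes around the let-7 pathway that controls HMGA2, 1 rose and 4 did not pass, against 2.15% of all genes tested that rose. Their median log2 fold change was 0.12. IGF2BP1, an oncofetal RNA-binding protein that stabilises its target mRNAs, rose from 146 ± 25.6 to 222 ± 15.0 CPM (SD, n = 2 and 3), with a log2 fold change of 0.60 (SE 0.13, edgeR adjusted p = 0.000783). Its call was lost without A2, where batch A held 1 library and the log2 fold change was 0.47. It was also lost with the DESeq2 Wald test (adjusted p = 0.211), but not with the local dispersion trend chosen after seeing the data (DESeq2 adjusted p = 0.0289). LIN28B, which blocks let-7 maturation, had 64.4 ± 0.485 CPM in batch A against 68.0 ± 14.7 CPM in batch B and was not called (edgeR adjusted p = 0.858). LIN28A had 0 counts in both batch A libraries and at most 1 count in a batch B library.

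**Figure D5:**
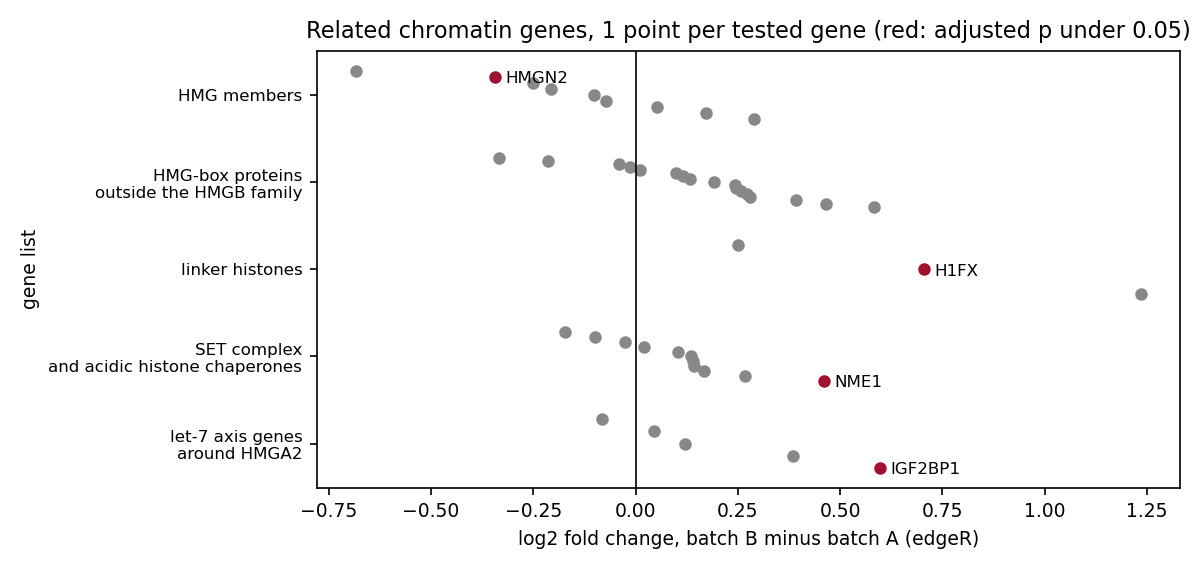
Log2 fold change, batch B minus batch A, of each tested gene (points) for the HMG genes and 4 lists of related genes (rows). HMGN2 at -0.34, H1FX at 0.70, NME1 at 0.46 and IGF2BP1 at 0.60 are the points with an adjusted p under 0.05.

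The genes most like the leading members in level and pattern were found by the Euclidean distance of log2(CPM + 1) over the 5 libraries. YWHAZ (distance 0.0707) and SRP14 (0.123) were nearest to HMGB1, PSMB5 (0.175) and MRPL37 (0.249) to HMGN2, and HSPA1B (0.180) and NDUFS8 (0.182) to HMGA1. These names are a description only.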

How the data were processed

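Counts per gene of 5 libraries were used as the authors deposited them, which are unnormalized whole numbers. The tools named are STAR 2.4.0a and cutadapt 1.2.1, and the build hg19 (GRCh37), per the submitters' processing notes. Not given in the sources used here are the counter, the annotation, the use of strand and whether molecular identifiers were collapsed, so intervals cover counting error only. The 52 spike-in rows were left out. Columns were matched to batches by the prefix shared with the sample titles.

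CPM was taken over gene counts. Batches were compared in edgeR 4.0.16 (R 4.3.3) with TMM scaling, filterByExpr and quasi-likelihood F tests of a batch term, with no other term, on 9215 genes. A gene was called where its p, adjusted by Benjamini-Hochberg, was under 0.05. The estimated prior degrees of freedom were infinite, so genes share the spread of others of like abundance. The SE is the log2 fold change over the square root of F, and 95% intervals are 1.96 SE wide on each side. The fit was also run on simulated counts that gave every gene the same dispersion. That run cannot show how the fit treats genes of wider spread. Alternatives used DESeq2 1.42.0 and limma 3.58.1 (voom), other scalings and filters, thinning, pseudogene rows added and leaving out each library. Where batch A was left with 1 library, that library is taken to vary as batch B does. Alignments used biopython 1.88. Transcripts are from GENCODE release 29, taking for each gene the longest coding sequence, and promoters from RefSeq, on a build other than that of the counts.

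Members and lists were chosen with earlier results of these data known. Named are the 9 members, pseudogene rows with at least 10 counts, up to 3 called members of each list (or its 2 of highest CPM) and the 2 genes nearest to the 3 leading or any called members. LIN28A, LIN28B, HIST1H1D, HIST1H1E, HMGN3-AS1 and the cell markers are named beside that rule.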

Additional observations from a re-analysis of the deposited data

How the results depend on the processing

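HMGN2 was the 1 member called. The count was 0 with the DESeq2 Wald test and 0 with its local dispersion trend, which was chosen after seeing the data, and it ranged from 0 to 2 when each library was left out. It was 1 under the 7 other alternatives. Without B3 the 2 calls were HMGN2 and HMGN4. Over all genes tested, 387 were called with edgeR (198 higher and 189 lower), 41 with DESeq2 (29 and 12), 104 with its local trend (63 and 41), 199 after thinning (108 and 91) and 138 to 333 when a library was left out. The split was 178 higher and 232 lower with library totals. Directions reversed for 3 members that were not called, and the cause was not tested. HMGA1 ranged from -0.044 to 0.15 when each library was left out, being below 0 without A3 (-0.044) and without B2 (-0.0048). HMGN5 ranged from -0.18 to 0.028, the latter without B1, and HMGB1 was at 0.10 after thinning. The other 6 kept their direction in every fit that tested them, and HMGN4 was not tested at a mean count of at least 20. HMGN4, with 94 counts in all, had an SE of 0.34 on the log2 scale. No paired analysis was possible because the labels link no library of batch A to one of batch B. The column digits of batch A also differ from its labelled replicate numbers.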
